A study of Rattus norvegicus with 19 samples.

Results

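The genes of the cytoplasmic ribosome's proteins were described in the T11 dorsal root ganglion of the rat, a cluster of sensory neurons and their glia that serves the skin and muscle of its segment. Members were the genes whose array symbol begins with Rpl, Rps or Rplp followed by a digit, or is Rpsa, without the Rps6k kinases. They came to 48 genes of the 14217 genes on the array, on 55 of the 31042 probe sets tested, and each gene was represented by its brightest probe set. There were 13 small subunit genes, 28 large subunit genes, Rplp0 of the ribosomal stalk and 6 genes named as paralogs. The 2 pseudogene symbols, Rpl37-ps2 and Rps4x-ps1, were kept apart. A further 36 probe sets carry several symbols, at least 1 of them ribosomal, so they were described together and named no gene. Rps19, Rps4x, Rpl10, Rpl38, Rplp1 and Rplp2 had no probe set with a single symbol and were not analysed by name.

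All rats were adult female Sprague-Dawley rats, and each gave 1 Affymetrix array from RNA of a single ganglion. The groups were 7 rats killed 14 days and 7 rats killed 7 days after unilateral transection of the dorsal and lateral cutaneous nerves of T9, T10, T12 and T13, and 5 naive rats. The T11 nerves stay intact in this model and sprout into the denervated skin, and the study presumed day 7 to be the initiation and day 14 the maintenance of that growth. Naive rats had no operation, so surgery and denervation cannot be told apart. Each array came from its own animal, and the ganglion's defining markers were present: the neuronal intermediate filament Prph averaged 13.30 ± 0.04, 13.30 ± 0.10 and 13.26 ± 0.05 log2 units at day 14, at day 7 and in naive rats (SD, n = 7, 7 and 5).

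Ribosomal proteins join ribosomal RNA in a small subunit, which reads the mRNA, and a large subunit, which forms the peptide bond. Their mRNAs are abundant in most cells, and many begin with a run of pyrimidines at the cap, the 5' terminal oligopyrimidine tract, through which the kinase mTOR controls their translation. In sensory neurons these mRNAs are also carried into axons, where ribosomal proteins can be made locally. An array of the ganglion reads mRNA levels in cell bodies, glia and other cells together, so fewer cells of a type and less RNA per cell cannot be told apart.

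The start sites of the members that results turn on are shown because many mRNAs of this family begin with a run of pyrimidines. RefSeq annotation of assembly GRCr8 held a promoter for 43 of the 48 genes and for 0 pseudogene symbols. Each line gives 20 bases before the annotated start and 10 bases from it on, 5' to 3' on the gene's strand. Capitals mark the longest run of C and T of at least 8 bases, where there is one. The marked runs of Rpl21 and Rpsa end before the annotated start, so they are not in the annotated mRNA. Rpl12, Rpl6, Rpsa and Rpl7l1 had the smallest p among members higher at day 14, Rpl21 and Rps4y2 are the members lower at an unadjusted p under 0.05, Rps6 and Rpl3 were among the least variable, Rpl3l is a paralog, and Rpl34 and Rpl35 hold the longest runs.
Rpl12: tgggcggagcaacatccgtcttttcggctt
Rpl6: ttgtgtatttttacatcactagatggcggg
Rpsa: cccgTCCTTTCCgcgctaccctggaacggg
Rpl7l1: gtggaagctgcagatgcattgtgggaagcc
Rpl21: CCCTCTTCCTTTCCgccggggcagccatct
Rps4y2: attgcgcgcgcagCTCTCCTCactcgcttg
Rps6: ttcgtgacgcctcctaggcggtcggctgtg
Rpl3: ctgcaccagcgcctgctcgatctctatcgg
Rpl3l: catttgacctctggtgcctggtggggaggt
Rpl34: gcccgCCCCTTCCTTTTCCTCTTCCgggga
Rpl35: ggccccgCCCCTTCCTCTTTCTCTCgaacc
The windows are Rpl12 at chr3:36661920-36661949 (plus strand), Rpl6 at chr12:41011681-41011710 (minus strand), Rpsa at chr8:128728859-128728888 (plus strand), Rpl7l1 at chr9:21695698-21695727 (plus strand), Rpl21 at chr12:13386144-13386173 (minus strand), Rps4y2 at chr4:183000893-183000922 (plus strand), Rps6 at chr5:106420531-106420560 (minus strand), Rpl3 at chr7:113507981-113508010 (minus strand), Rpl3l at chr10:14258426-14258455 (plus strand), Rpl34 at chr2:221962274-221962303 (minus strand) and Rpl35 at chr3:43165912-43165941 (minus strand).

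Such a run was in the window of 25 of 43 members (58.1%), against 12% of all 33469 promoters. The count took runs on either side of the annotated start. It was in 24 of the 37 that are not paralogs (64.9%) and in 1 of 6 paralogs. With runs of at least 6 bases the share was 74.4% of members, against 29.3% of all promoters. In the whole 300-base promoter, searched on both strands, CCGGAA, the core of ETS factor sites, was in 17 of 43 members, against 15% of all promoters. ATGGCG, the core of YY1 sites, was in 17 of 43, against 9.98%, and it can overlap a start codon because the window runs 50 bases past the start. TATAAA was in 6 of 43 (14%), against 14.2%. These are matches of letters and say nothing of binding.

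Most of the 48 genes gave signals near the top of the array's scale. Their median of mean log2 signals was 12.04, and 31 of 48 lay above the 95th percentile of all probe sets, 11.34. Signals of different probe sets depend on probe affinity as well as abundance, so the order of genes was not read as an order of mRNA levels. Compression at the top of the scale was not tested. The highest naive means belonged to Rps23 (13.50), Rpl3 (13.33), which lies near the peptidyl transferase centre, Rpl7a (13.31), Rps6 (13.18), the substrate of the S6 kinases, and Rps3 (12.93), a protein of the mRNA entry channel. At the other end, the probe sets of Rpl39l1 (4.53), Rpl30 (4.51), Rps27l (5.52), Rps13 (5.71) and Rpl3l (5.76) were dim. The median residual SD, the spread between rats of one group, was 0.137 log2 units over members and 0.138 over all probe sets.

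At day 14, ribosomal protein mRNAs as a family lay close to naive. With limma, 0 of 48 members passed an adjusted p of 0.05, where 0.139% of all probe sets did (0.0258% higher and 0.113% lower). The median log2 difference of members was 0.023, against 0.021 over all probe sets, and single genes ranged from -0.21 to 0.27. Small subunit genes had a median of 0.027 and large subunit genes 0.023. The 95% interval lay within 0.25 log2 units of 0 for 26 of 48 members (54.2%) and within 0.5 for 47 (97.9%), and for the remaining members it reached further. Over all probe sets the shares were 43.4% and 91.2%. At an unadjusted p under 0.05 there were 4 members higher and 0 lower, which is 8.33% of members. Of all probe sets 19.7% passed that p, 10.9% higher and 8.79% lower.

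Rpl12, a large subunit protein at the base of the stalk, differed from naive by 0.27 ± 0.09 (SE) log2 units, the smallest p among members, with a limma adjusted p of 0.144. Its log2 signal at day 14 was 12.09 at the lowest, 12.14 at the median and 12.31 at the highest. The naive values were 11.91, 12.05, 12.00, 11.58 and 11.98, so all 7 day 14 rats lay above every naive rat. Without the lowest naive rat, replicate 4, the difference was 0.19, with a limma adjusted p of 0.31. Groups that did not overlap in the higher direction were met in 2 of 48 members, Rpl12 and Rpl7l1, and in 1.07% of all probe sets. The lower direction held 0 members and 0.751% of all probe sets.

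Rpl7l1, a paralog of Rpl7, had day 14 signals of 9.14 at the lowest, 9.21 at the median and 9.40 at the highest, against 8.89, 9.06, 9.02, 9.01 and 9.12 in naive rats. All day 14 rats lay above the naive rats, 0.20 ± 0.08 (SE) log2 units apart, and limma's adjusted p was 0.189. A second probe set of the gene, of nearly the same brightness, differed by only 0.03. Rpl6, a large subunit protein, lay 0.15 ± 0.06 (SE) log2 units above naive (limma adjusted p = 0.196), with 4 of 7 rats above the highest naive rat, and 0.10 above naive without naive replicate 4.

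At the low end at day 14, Rps13, a small subunit protein with a dim probe set, had signals between 5.04 and 5.96 with a median of 5.49, against 5.54, 5.84, 5.58, 5.84 and 5.76 in naive rats. The groups overlapped, and the log2 difference of -0.21 ± 0.11 (SE) had a limma adjusted p of 0.296. Rpl3l, Rpl28, Rpl39 and Rpl21 followed at -0.15, -0.10, -0.10 and -0.09, with limma adjusted p of 0.522, 0.458, 0.465 and 0.455. Their mean signals were 5.64, 6.15, 7.30 and 11.05, beside a median of 6.72 over all probe sets. Rps24, a small subunit protein, differed by 0.07 on its brighter probe set and by -0.38 on a dim one of mean signal 4.92, whose limma adjusted p was 0.162.

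Rpsa, a small subunit protein also known as a laminin receptor at the cell surface, had log2 signals between 12.72 and 13.05 at day 14, with a median of 12.94. At day 7 they lay between 12.80 and 13.12, with a median of 12.97. The naive rats gave 12.82, 12.70, 12.81, 12.66 and 12.82. The highest naive value was exceeded by 6 of 7 rats at day 14 and by 5 of 7 at day 7. Rpsa lay 0.16 ± 0.07 (SE) log2 units above naive at day 14 and 0.18 ± 0.07 (SE) at day 7, for which limma's adjusted p was 0.203 and 0.455. The gene's other probe sets gave 0.16 and 0.16 at day 14, and 0.13 and 0.04 at day 7. All 3 probe sets were therefore higher at both times, by amounts that did not pass the test.

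**Figure D1:**
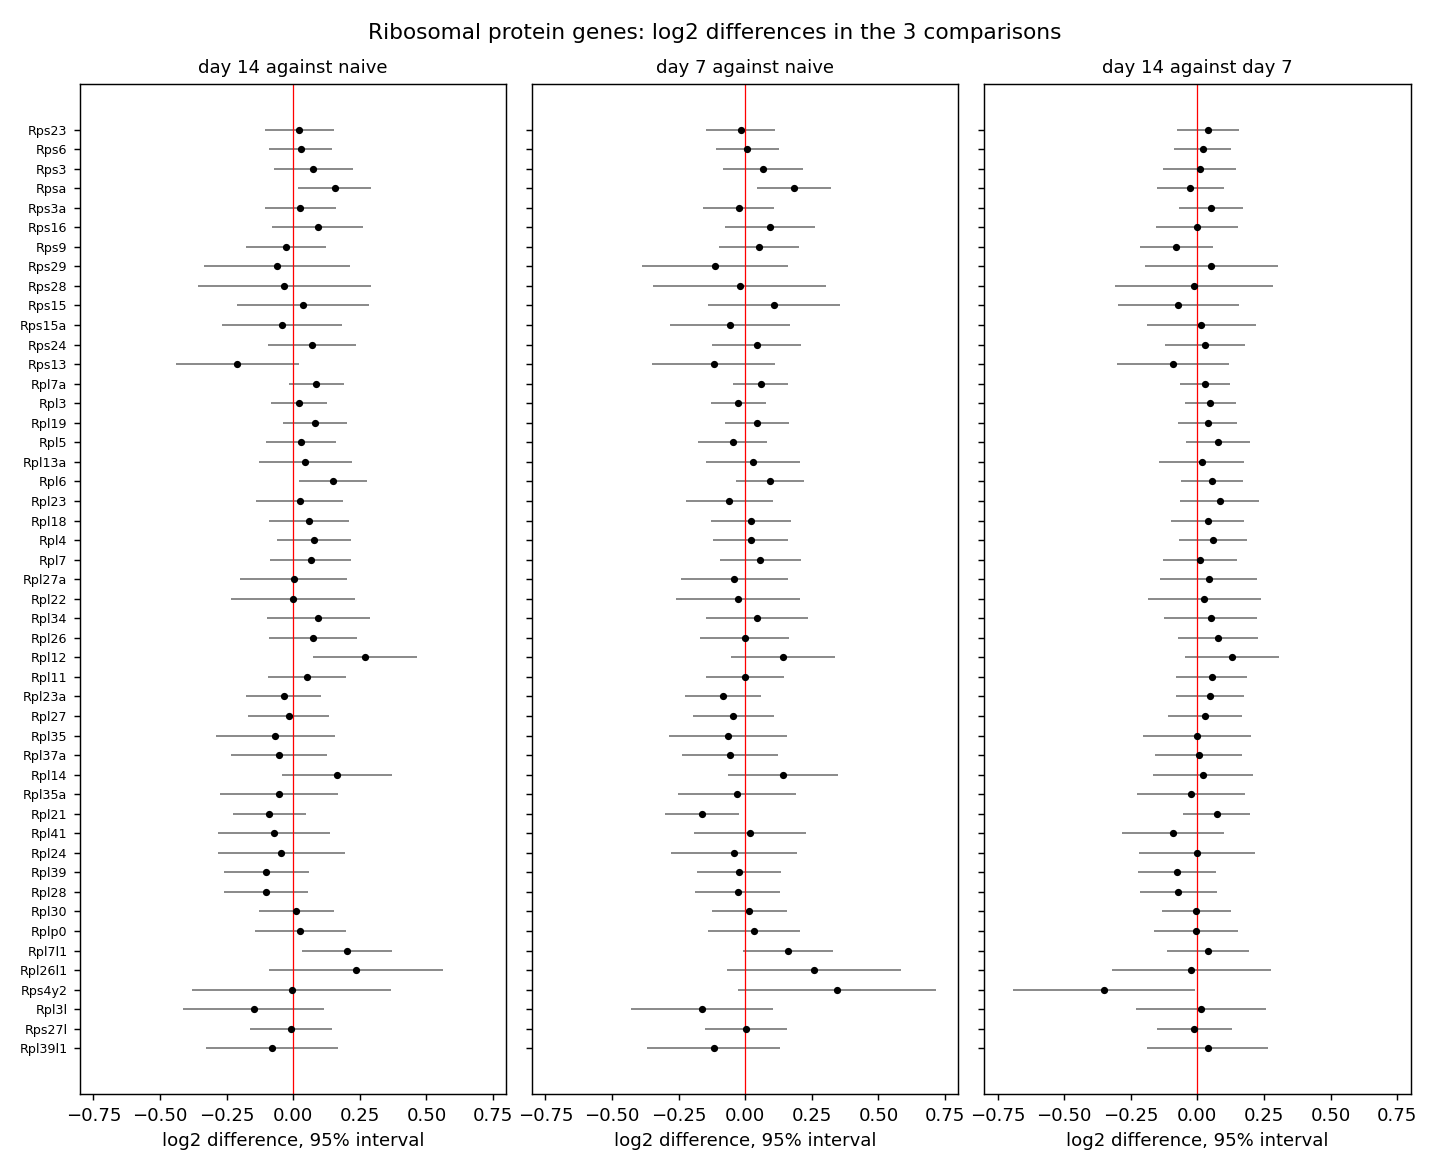
Log2 difference of each of the 48 ribosomal protein genes (rows) in the 3 comparisons, with 95% intervals from limma. Points cluster at 0, between -0.21 and 0.27 for day 14 against naive, and Rpl12 has the interval farthest above 0 there.

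At day 7 the family was as close to naive. With limma 0 of 48 members passed, where 0.0% of all probe sets did, and the smallest adjusted p was 0.455. The median log2 difference was 8.1e-05, against 0.007 over all probe sets, and 24 genes were above 0 and 24 below. Small subunit genes had a median of 0.008 and large subunit genes one of -0.013. At an unadjusted p under 0.05 there was 1 member higher, Rpsa (2.08% of members, against 3.69% of all probe sets), and 1 lower, Rpl21 (against 5.0%), and 8.7% of all probe sets passed that p in either direction. Groups did not overlap for 0 members, against 0.19% of all probe sets higher and 0.251% lower. Rpl21, a large subunit protein, had signals between 10.76 and 11.14 at day 7, with a median of 11.07, against 11.13, 11.22, 11.17, 11.06 and 11.13 in naive rats. The groups overlapped, with 3 of 7 day 7 rats below the lowest naive rat, and day 7 lay -0.16 ± 0.07 (SE) log2 units from naive (limma adjusted p = 0.519).

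Day 14 and day 7 were compared to ask what sets maintenance apart from initiation. With limma 0 of 48 members passed, where 0.0% of all probe sets did, and the smallest adjusted p was 0.43. The median was 0.021, against 0.011 over all probe sets, and 31 members lay above 0 (64.6%, against 55.0% of all probe sets). Groups did not overlap for 0 members, against 0.106% of all probe sets higher and 0.0805% lower. Rps4y2 was the 1 member at an unadjusted p under 0.05, with a log2 difference of -0.35 between day 14 and day 7. Of all probe sets 11.3% passed that p, 7.11% higher and 4.22% lower. RefSeq places this paralog of Rps4 on chromosome 4. Its log2 signals ranged from 5.50 to 6.46 at day 14 with a median of 5.82, from 5.72 to 6.56 at day 7 with a median of 6.23, and in naive rats they were 5.73, 5.35, 6.08, 6.03 and 6.04. The groups overlapped, and its residual SD was the largest of the 48 members at 0.336.

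For the other measured members of a set fixed for their known roles, differences from naive at day 14 lay between -0.001 and 0.08 log2 units, beside 0.16 for Rpsa. Rpl5 and Rpl11, which with 5S RNA bind the p53 ligase Mdm2, differed at day 14 by 0.03 and 0.05 log2 units (limma adjusted p = 0.826 and 0.707). Rps6 differed by 0.03 and Rps3 by 0.08 at day 14, and Rpl22 by -0.001. Rplp0, the stalk protein often used as a reference gene, differed by 0.03 at day 14 and by 0.03 at day 7. The 36 several-symbol probe sets had medians of -0.001, -0.023 and 0.031 in the comparisons of day 14 with naive, day 7 with naive and day 14 with day 7, and 0 passed in any of them.

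The members moved together between rats of the same group. In naive replicate 4, 5 of 48 members lay above their own mean over the 19 arrays, the mean deviation of the members was -0.21 log2 units, and 23 of 48 had their lowest value there. In day 7 replicate 5 the number was 5 of 48 and the deviation -0.16. At the high end, 47 of 48 members lay above their mean in day 7 replicate 4, with a deviation of 0.14, and 43 in day 14 replicate 3. The mean deviation per group was 0.01 ± 0.06 at day 14, 0.00 ± 0.10 at day 7 and -0.01 ± 0.12 in naive rats (SD, n = 7, 7 and 5). The several-symbol probe sets lay at -0.22 in naive replicate 4. There the 73 mitochondrial ribosomal protein genes, which belong to a separate ribosome, also lay at -0.22. In day 7 replicates 5 and 4 the mitochondrial genes lay at -0.09 and 0.08. In day 14 replicate 3, where the members were high, they lay at -0.06.

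**Figure D2:**
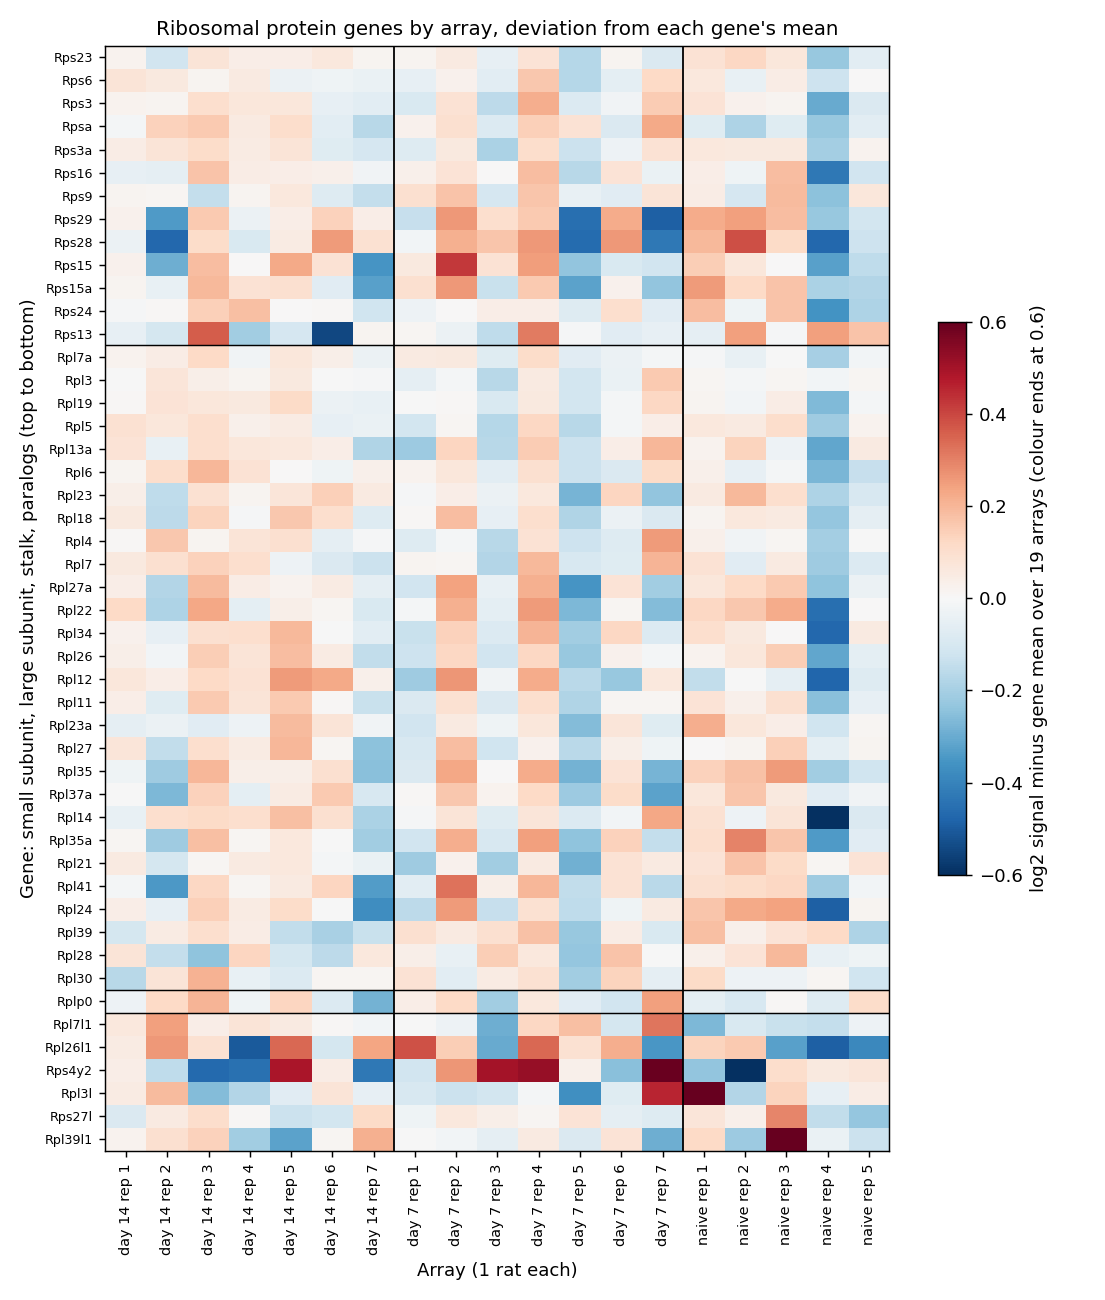
Log2 signal of each of the 48 genes (rows) on each of the 19 arrays (columns, day 14, day 7 and naive), as the deviation from that gene's mean, with colours ending at 0.6. Naive replicate 4 and day 7 replicate 5 are blue down most of the column, and day 7 replicate 4 is red.

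In naive replicate 4 the signal of 3' probe sets of the control transcripts exceeded that of their 5' probe sets by 3.69 log2 units, the highest of the 19 arrays. The difference averaged 3.26 ± 0.07 at day 14, 3.27 ± 0.08 at day 7 and 3.42 ± 0.18 in naive rats (SD, n = 7, 7 and 5). Day 7 replicate 5, the next lowest for the members, had 3.27. Naive replicate 3 had the next highest 3' minus 5' signal, 3.52, and there 39 of 48 members lay above their mean, with a deviation of 0.09. Day 7 replicate 2 followed with 3.38, and its members deviated by 0.11. Next came day 14 replicate 7 with 3.36, where the members deviated by -0.09, the lowest of the day 14 arrays. Day 14 replicate 4 had 3.35 and a deviation of 0.001, and day 7 replicate 3 had 3.34 and -0.06. The part of this balance in the members' movement was not tested.

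**Figure D3:**
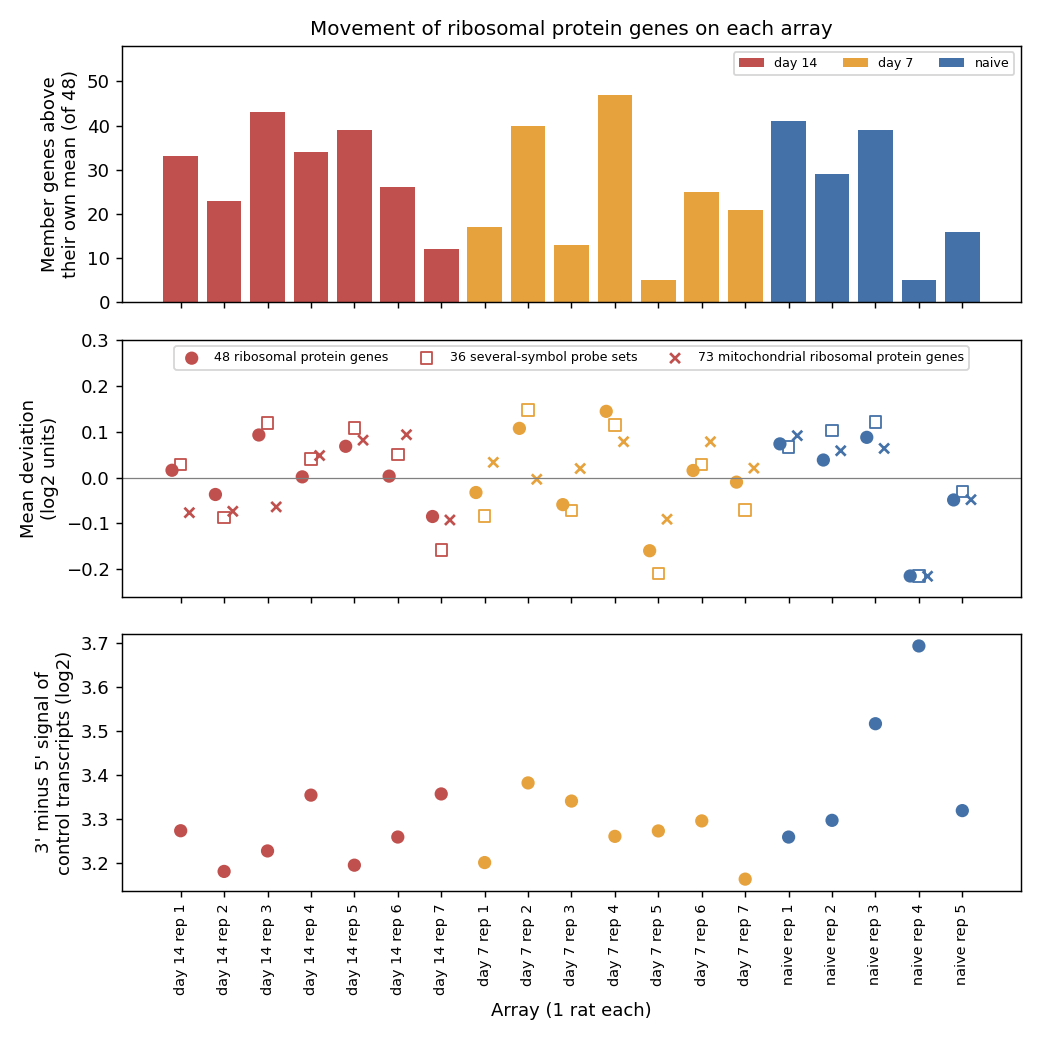
For each array, the number of the 48 genes above their own mean (top), the mean deviation of these genes, of the several-symbol probe sets and of mitochondrial ribosomal protein genes in log2 units (middle), and the 3' minus 5' signal (bottom). The counts run from 5 to 47, with high and low arrays in each group.

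Skeletal muscle transcripts stood apart on 1 array of each group, with a mean of 27 muscle genes of 7.52 log2 units in day 14 replicate 2, 8.37 in day 7 replicate 7 and 8.71 in naive replicate 1. Rpl3l, a paralog of Rpl3 that is made in striated muscle of mouse and human, was highest of its group on the same arrays, at 5.83, 6.10 and 6.27. Its group values ran from 5.38 to 5.83 at day 14, from 5.28 to 6.10 at day 7 and from 5.47 to 6.27 in naive rats, with a log2 difference of -0.15 ± 0.13 (SE) at day 14. On the day 14 and day 7 arrays of this kind Rps29 was low at 12.18 and 12.03, and Rps28 at 10.99 and 11.03. In naive replicate 1 they were 12.75 and 11.65. Both were also low on arrays where muscle transcripts were not high. Day 7 replicate 5 (muscle mean 6.32) had Rps29 at 12.07 and the lowest Rps28 of its group. Naive replicate 4 (muscle mean 6.53) had the lowest naive values of both genes. The part of muscle RNA in these values was not tested. Rpl26l1, a paralog of Rpl26, differed by 0.24 ± 0.16 (SE) at day 14, with overlapping groups (limma adjusted p = 0.408).

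One transcript of the ribosomal symbols passed the test, the pseudogene symbol Rpl37-ps2, which fell at day 14. Its log2 signals were 6.69, 6.72, 6.62, 6.88, 6.60, 6.71 and 6.92 at day 14. At day 7 they were 6.75, 6.59, 6.86, 6.81, 6.85, 7.04 and 6.99. The naive rats gave 7.25, 7.21, 7.07, 7.28 and 7.27, so every operated rat lay below every naive rat. Of all probe sets, 0.751% did not overlap with naive in the lower direction at day 14 and 0.251% at day 7. The fall amounted to a log2 difference of -0.48 ± 0.07 (SE) at day 14 (limma adjusted p = 0.0179), and the day 7 difference was -0.37 ± 0.07 (SE), which did not pass (limma adjusted p = 0.176). Probes of such a symbol may also bind near-identical copies, which was not tested. Rps4x-ps1 was dim and differed by 0.03 at day 14.

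The call for Rpl37-ps2 was lost with the letters that begin the animal codes as a block (-0.45, limma adjusted p = 0.447), with the 3' minus 5' signal as a covariate (-0.47, adjusted p = 0.123) and without the muscle-high arrays (-0.47, adjusted p = 0.0527). The day 14 rats carry AI (5) or AJ (2), the day 7 rats AJ (5) or AK (2) and the naive rats AJ (2) or AK (3), so day 14 and naive rats share only AJ. Among rats with AJ, Rpl37-ps2 was 6.62 and 6.88 at day 14, against 7.25 and 7.07 in naive rats.

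**Figure D4:**
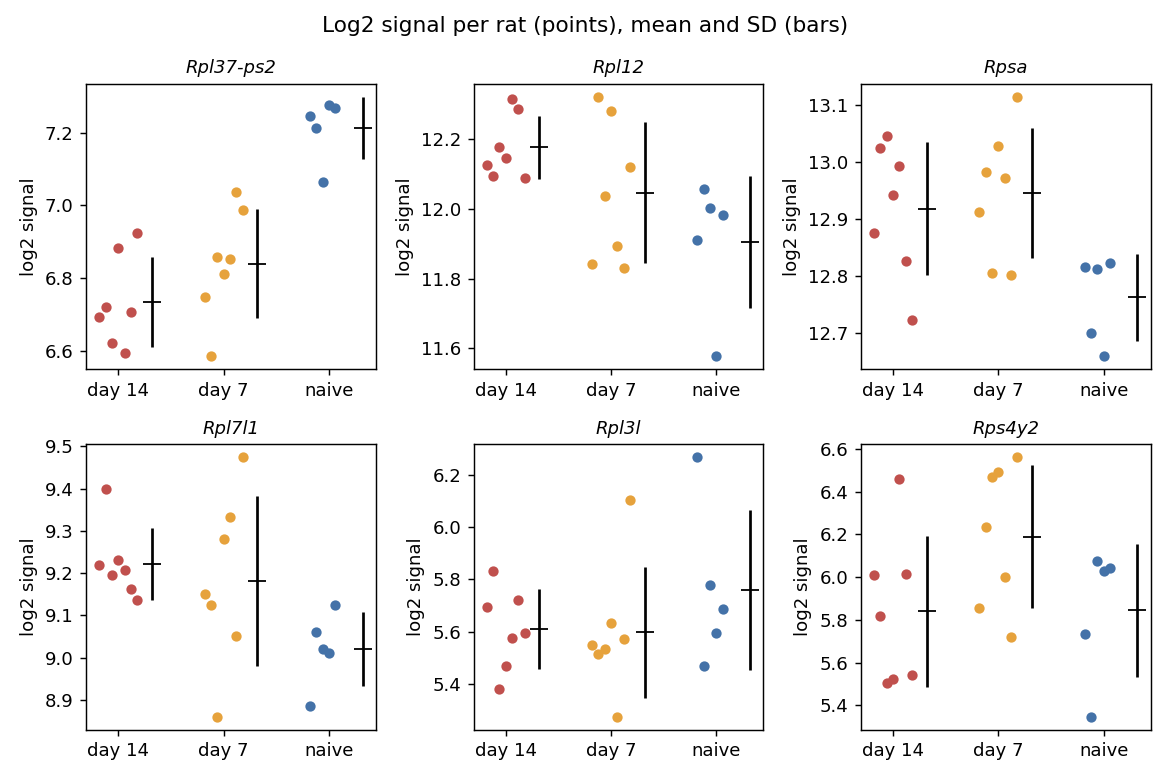
Log2 signal per rat of Rpl37-ps2, Rpl12, Rpsa, Rpl7l1, Rpl3l and Rps4y2 at day 14, at day 7 and in naive rats, with the mean and SD beside each group. The Rpl37-ps2 points of both operated groups lie below all naive points (lowest 7.07), and those of Rps4y2 overlap.

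Genes that build or use the ribosome were set beside the members. Of 73 measured ribosome biogenesis genes, 2 passed at day 14, both lower, where 0.113% of all probe sets passed in that direction, with a list median of -0.042. Utp18, a part of the small subunit processome, averaged 5.13 ± 0.12 at day 14 and 5.49 ± 0.07 in naive rats (SD, n = 7 and 5), a log2 difference of -0.36 ± 0.06 (SE; limma adjusted p = 0.0237), and 7 of 7 rats lay below every naive rat. Wdr75, another processome protein, averaged 7.55 ± 0.15 at day 14 and 7.93 ± 0.14 in naive rats (SD, n = 7 and 5), a log2 difference of -0.39 ± 0.08 (SE; limma adjusted p = 0.0459), but its other probe set differed by -0.12. Both calls were lost with the animal code block, at -0.34 for Utp18 (limma adjusted p = 0.543) and -0.42 for Wdr75 (adjusted p = 0.542), and with the 3' minus 5' covariate, at -0.32 (adjusted p = 0.187) and -0.43 (adjusted p = 0.145). Over all alternatives run for them, the Utp18 call was kept in 22 of 30 and the Wdr75 call in 11 of 31. The probe set of Utp18 was dim, below the median of all probe sets (6.72), and the filter on dim probe sets left it out. With single rats left out, Utp18 did not pass without day 14 replicate 5, day 14 replicate 6 or naive replicate 3 (highest adjusted p = 0.0558), and Wdr75 did not pass in 12 of 19 cases (highest adjusted p = 0.0992). Groups did not overlap for 2 biogenesis genes lower and 1 higher at day 14, against 0.751% and 1.07% of all probe sets. The 1 higher was Polr1a, 0.26 ± 0.09 (SE) log2 units above naive (limma adjusted p = 0.144). At an unadjusted limma p under 0.05, 11 biogenesis genes were lower and 3 higher, against 8.79% and 10.9% of all probe sets. At day 7 and for day 14 against day 7, 0 of the biogenesis genes passed.

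Translation initiation factors (38 measured), elongation factors and other mRNAs with a pyrimidine start (12), mitochondrial ribosomal proteins (73) and genes of S6 kinase and mTOR signalling (22) had 0 members past the threshold in all 3 comparisons. At day 14 their medians were 0.036, 0.08, 0.007 and -0.087, against 0.021 over all probe sets. Eif4ebp2, which restrains cap-dependent initiation when not phosphorylated by mTOR, differed by -0.33 ± 0.11 (SE) at day 14 and by -0.31 ± 0.11 (SE) at day 7, with 6 of 7 rats of each group below the lowest naive rat and adjusted p-values of 0.137 and 0.455 in limma. Initiation factors lay on both sides of 0 at day 14, 25 of 38 above it (65.8%, against 56.4% of all probe sets) and 13 below. Eif3c differed by 0.34 ± 0.12 (SE) at day 14, with 4 of 7 rats above the highest naive rat (limma adjusted p = 0.155). Of the 22 S6 kinase and mTOR genes, 6 lay above 0 at day 14 (27.3%, against 56.4% of all probe sets) and 16 below. At an unadjusted limma p under 0.05, 4 were lower and 1 higher, against 8.79% and 10.9% of all probe sets. Mlst8 had the smallest p, at -0.23 ± 0.08 (SE; limma adjusted p = 0.143). Rps6ka4 differed by -0.30 ± 0.11 (SE; limma adjusted p = 0.161), but its other probe sets by 0.16 and 0.20. The 1 higher was Myc, at 0.29 ± 0.12 (SE; limma adjusted p = 0.215). Rack1, a scaffold on the small subunit, differed by 0.05 at day 14 and by 0.01 at day 7.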

How the data were processed

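Single T11 ganglia were profiled on Affymetrix arrays after 2 rounds of linear amplification, per the labels' protocols, and 1 naive array that the submitters removed was left out. What the authors deposited is 1 log2 value per probe set and array, from RMA per the submitters' processing notes, which also name limma without a version. RMA gives every array the same distribution, so a shift of most transcripts would not be seen. The number of arrays limits the precision. Symbols came from the platform annotation. An update through RefSeq gene names would have changed 1 symbol and was not applied. The 57 control probe sets were left out.

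The test was limma 3.58.1 (R 4.3.3) on all 31042 probe sets, fitted over the 19 arrays together, at a threshold of 0.05 after Benjamini-Hochberg adjustment, and the script was tested on simulated data. Tables used Python 3.11.15 and pandas 2.3.3. Members and lists were chosen with earlier results of these data known. Named genes were members past the threshold, the 5 smallest p in each direction of each comparison, the 5 brightest and dimmest, the 5 most and least variable, paralogs, pseudogene symbols, a fixed set, and of other lists the 3 smallest p. Not every gene chosen this way from the other lists is named in the text. Probe-set-level alternatives covered dim filters, normalization, moderation, weights, blocks, covariates and left-out arrays. The 6-base run and TATAAA were added to the sequence search after the other motifs were chosen.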

Additional observations from a re-analysis of the deposited data

Results flagged for a closer look

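Some arrays lay far from the others of their group for single members. Of 108 groups of values examined, 11 held such an array, where chance gives about 5.4 (1 in 20). Naive replicate 4 was far below the other naive rats for Rpl19 (12.47, next 12.71), Rpl5 (12.43, next 12.67) and Rpl7a (13.17, next 13.32). Day 14 replicate 2 was far from the other day 14 rats for Rpl7l1 (9.40, next 9.23), Rps23 (13.39, next 13.52) and Rps29 (12.18, next 12.49). Day 7 replicate 7 was far above for Rpl3l (6.10, next 5.63), and day 7 replicate 4 for Rps13 (5.90, next 5.60). The mean of the skeletal muscle list was far above the rest of its group in day 14 replicate 2 (7.52, next 6.46), day 7 replicate 7 (8.37, next 6.92) and naive replicate 1 (8.71, next 6.53).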

How the results depend on the processing

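Under all 31 alternatives, 0 of the members tested passed in any of the 3 comparisons. The members' median log2 difference stayed within the pooled SD of the array means (0.096): for day 14 against naive (0.023) it ran from -0.012 to 0.077, and from -0.025 to 0.045 with single rats left out. For day 7 against naive it ran from -0.045 to 0.023 and from -0.041 to 0.033, and for day 14 against day 7 from 0.004 to 0.073 and from -0.008 to 0.043. The sign of so small a median was thus not fixed. The number of probe sets called over the whole table at day 14 against naive, 43, was 76 with array weights, 13 with only the groups compared, 9 with the replicate block, 0 with the animal code block, 0 with the 3' minus 5' covariate, 20 with 1 probe set per gene and 12 without the muscle-high arrays. With single rats left out it ran from 5 (without naive replicate 3) to 401 (without naive replicate 1). For day 7 against naive, 0 became 2 with the 3' minus 5' covariate and 0 to 2 with single rats left out. For day 14 against day 7, 0 became 1 with the animal code block and 0 to 3 with single rats left out. Replicate numbers did not pair the rats: 3 of 17 same-numbered pairs correlated above 0.1 (range -0.259 to 0.329), and 6 of 34 arrays matched their own number best. Of 3057 alternative values of named members, 3 lost their call (Rpl37-ps2 at day 14 with the animal code block, with the 3' minus 5' covariate and without the muscle-high arrays), 212 changed sign without a call, and 0 called values changed sign. For named genes the settings other than normalization, replicate block, muscle-high arrays, probe set and left-out rats were added after seeing the data. For Rpl37-ps2 the probe set settings were also added then. The cause of these shifts was not tested.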
